A study of Mus musculus with 26 samples.

Results

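Nuclear and structural noncoding RNAs were followed through a series that compared RNA immunoprecipitated (IP) from astrocytes of the mouse retina with retinal input RNA and with astrocyte IP RNA of the optic nerve. The 8 RNAs were taken by their Ensembl mouse gene identifiers out of the 54532 genes of the deposited table: Malat1, Neat1, Meg3, Miat, Rmst, Snhg11 and the pair of 7SL genes Rn7s1 and Rn7s2. The question was whether IP RNA holds less of these untranslated RNAs than the input does. The series has 26 libraries from untreated mice, labelled day 0: 6 of retina input, 6 of retina IP, 7 of IP from the optic nerve head (ONH) and 7 of IP from the myelinated optic nerve proper (ONP). The labels give no genotype, strain, sex, age, driver line or IP antigen, and do not say whether replicates are separate animals. A p-value here thus weighs a difference only against the scatter of the libraries, which may be technical. All 12 retinal libraries and replicate 7 of each nerve group were sequenced in batch 2, and the other 12 nerve libraries, from an earlier study, in batch 1. RNA was captured with oligo-dT beads and amplified with an ultra-low input kit. Nerve input libraries were not analysed here, so the IP and input could be compared in retina alone.

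Long noncoding RNAs such as Malat1, a component of nuclear speckles, and Neat1, the scaffold of paraspeckles, stay in the nucleus and are not translated. Neat1 is made as a short polyadenylated form and a long form that builds the paraspeckle, and the table gives 1 value for both. The 7SL RNA is of another kind: RNA polymerase III makes it without a poly(A) tail, and it forms the backbone of the signal recognition particle, which docks on ribosomes that are making secreted and membrane proteins. Meg3, Miat, Rmst and Snhg11 are long noncoding RNAs known mainly from neurons and the brain, Meg3 being expressed from the maternal chromosome of an imprinted cluster and Snhg11 being a host of small nucleolar RNAs.

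The identities of these RNAs bear on how they could be captured and counted. Coordinates and sequences are from GENCODE M21 on mm10, read 5′ to 3′. Malat1 (ENSMUSG00000092341) is a lincRNA of chromosome 19, 5795690 to 5802672 on the minus strand, and Neat1 (ENSMUSG00000092274) lies beside it at 5824708 to 5845478, also on the minus strand. Meg3 (ENSMUSG00000021268) is on chromosome 12 at 109541001 to 109571726, plus strand. Miat (ENSMUSG00000097767) is on chromosome 5 at 112213228 to 112229395, minus strand, and Rmst (ENSMUSG00000112117) on chromosome 10 at 92071037 to 92165170, minus strand. Snhg11 (ENSMUSG00000044349), on chromosome 2 at 158375638 to 158386145, plus strand, is classed as protein coding in this annotation. Rn7s1 (ENSMUSG00000099021) and Rn7s2 (ENSMUSG00000099250) are 300-base genes of chromosome 12, at 69159295 to 69159594 on the plus strand and at 69361182 to 69361481 on the minus strand. Annotated genes overlap each of the 8, among them the lincRNA Gm26906 on the opposite strand of Meg3 and the miRNA genes Gm47295 and Gm47287 within Rn7s1, and the sources used here do not say whether counting used strand. The starts of the 7SL genes are shown because their reads cannot be told apart, and the ends of Malat1 and Neat1 because both RNAs, Neat1 in its long form, are cut there rather than tailed in the usual way. The 7SL stretches are the opening 30 bases of Rn7s1 (chr12:69159295-69159324, plus strand) and Rn7s2 (chr12:69361452-69361481, minus strand). In Malat1 (chr19:5795979-5796008, minus strand) capitals mark only the longest run of A, bases 6674 to 6685 of the 6983-base model. The rest of its A-rich stretch, after the run, is in lower case. The tRNA-like RNA that RNase P cuts off follows the A-rich stretch. In Neat1 (chr19:5824708-5824737, minus strand) capitals mark the whole A-rich end, GC included, which closes the 20771-base model.
Rn7s1: gccgggcgcggtggcgcacgcctgtagtcc
Rn7s2: gccgggcgcggtggcgcacgcctgtagtcc
Malat1: cctagctttAAAAAAAAAAAAgcaaaagac
Neat1: gagaacgaacgtgagcaggAAAAAGCAAAA
Rn7s1 and Rn7s2 had 0 substitutions over their whole 300 bases. All of their 270 distinct 31-base words were shared, and 236 of these also occurred in 15 other genes, so any division of reads between the genes comes from the quantification model. Rn7s1 held a median of 89.75% of the pair's counts over the libraries, with a range of 60.0% to 97.83%, and the sum of both genes is therefore given beside each. The window of 80 bases on each side of the Malat1 run and the last 100 bases of Neat1 share the 16-base stretch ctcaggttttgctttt, part of the U-rich motif that pairs with the A-rich tail in a triple helix. The longest run of A was 12 bases in Malat1, 16 in Meg3, 9 in Rmst and in Snhg11, 7 in Neat1, and 4 in Miat and 7SL. Whether oligo-dT bound at these runs was not tested.

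Total counts were 11164619 to 18417001 in retina input, 14703195 to 24966236 in retina IP, 14812762 to 26407745 in ONH and 14051088 to 27431026 in ONP libraries. Levels are CPM, the counts per 1e6 counts of the library, scaled by TMM factors. Retina input replicates 1 and 2 stood apart: 8.17% and 15.2% of their counts were mitochondrial, against 2.79% to 4.01% in the other 4, and 16782 and 17082 genes were detected, against 19835 to 20702. The retinal log2 fold changes of the 8 RNAs and Xist and the medians of gene classes and lists are therefore also given without these libraries. As for the labelled cell type, the summed CPM of 12 astrocyte markers was 528.5 to 2239 in input and 1710 to 13930 in retina IP, and Pax8 ranged from 30.19 to 376.7 CPM in IP. The 10 pan-neuronal markers still summed to 2321 to 14170 CPM in retina IP, against 11770 to 16570 in input, so neuronal RNA remained in the retina IP libraries. IP replicates 1, 5 and 6 had pan-neuronal sums of 13800 to 14170 CPM, within the input range, and astrocyte sums of 1710 to 3090 CPM, while replicates 2, 3 and 4 had pan-neuronal sums of 2321 to 4497 CPM and astrocyte sums of 9652 to 13930 CPM.

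Of the 8 RNAs, 7SL differed most clearly between retina IP and input. Rn7s1 and Rn7s2 together stood at 77.66, 92.23 and 194.6 CPM (lowest, median and highest of 6) in input and at 2.78, 10.34 and 28.44 CPM in IP, and the groups did not overlap. Means were 109.7 ± 43.9 CPM (SD, n = 6) in input and 13.0 ± 9.77 CPM (SD, n = 6) in IP. Every IP library thus held less 7SL than every input library. The log2 fold change of the sum was -2.95 (SE 0.516), with an edgeR quasi-likelihood adjusted p of 0.0574.

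Taken separately, Rn7s1 had a log2 fold change of -2.93 (SE 0.512, edgeR adjusted p = 0.0570) and Rn7s2 of -3.24 (SE 0.666, edgeR adjusted p = 0.0570). Each gene was below all of its input values in all 6 IP libraries. Of the 15181 genes tested, 2.90% had IP libraries that lay below all input libraries without overlap. edgeR called 0 of the 8 RNAs here, and 0% of all genes in either direction, so a miss of the 0.05 threshold is shared with every gene of this comparison. At an unadjusted p under 0.05, 3 of the 8 were lower in IP (Malat1, Rn7s1 and Rn7s2) against 10.4% of all genes, and DESeq2 called the same 3 lower, against 7.12% of all genes (DESeq2 adjusted p = 9.59e-06 for Rn7s1 and 8.12e-05 for Rn7s2). Rn7s1 and Rn7s2 have the same sequence, so both counts of 3 hold 1 RNA as 2 genes. Without input replicates 1 and 2 the log2 fold changes were -2.59 for Rn7s1 and -2.79 for Rn7s2, so most of the difference was still there (edgeR adjusted p = 0.0788 and 0.0934). In that fit edgeR called 48 of 15881 genes lower and 1 higher, and neither 7SL gene was among them. edgeR called both without retina IP replicate 1 (adjusted p = 0.0322 and 0.0369) or replicate 5 (0.0395 for each). The share of all genes called in those fits is not given here, so the calls cannot be set against it.

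Per kilobase of exon, with Neat1 at its 20771-base long form, Malat1 had the highest mean level of the 6 long RNAs in every group. Malat1 stood at 100.2 CPM in retina input and 24.95 to 28.82 CPM in the IP groups. Retina input held 260.9, 343.9 and 1628 CPM (lowest, median and highest of 6) and retina IP 40.09, 112.3 and 464.2 CPM. The groups overlapped: IP replicate 3, at 464.2 CPM, was above 4 of the 6 input libraries, replicate 4, at 275.3 CPM, was above 1, and IP replicates 5 and 6, at 41.21 and 40.09 CPM, were far below all of them. The fitted log2 fold change was -1.87 (SE 0.684), which edgeR did not call (adjusted p = 0.128) and DESeq2 did (log2 fold change -1.96, adjusted p = 0.0293). Input replicates 1 and 2, at 1628 and 1320 CPM, carried much of it: without both, the log2 fold change was -0.71 with an edgeR adjusted p of 0.563.

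**Figure D1:**
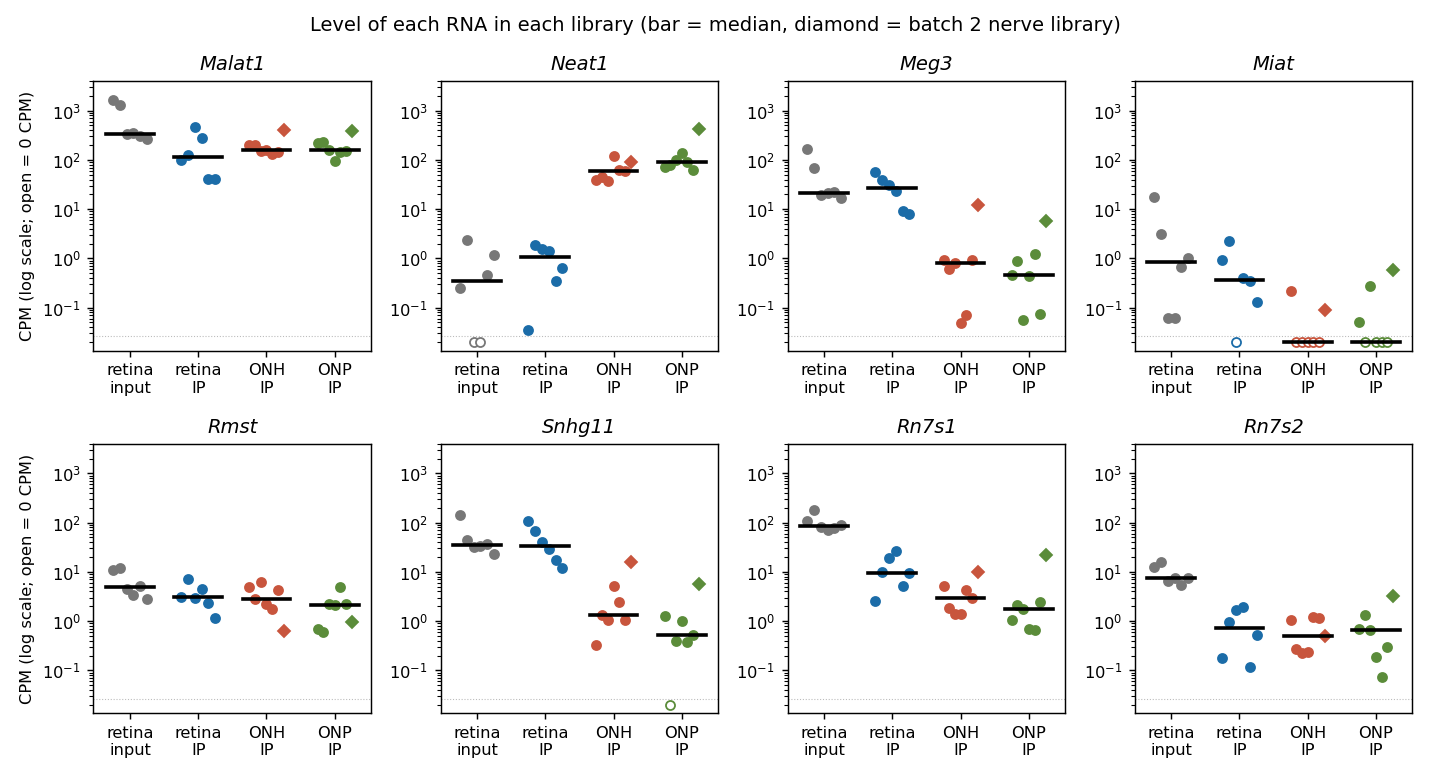
CPM of the 8 RNAs (log axis) in each of the 26 libraries, by group; points are libraries, bars are medians, diamonds are the batch 2 nerve libraries and open points are libraries at 0 CPM. Both 7SL genes are lower in every retina IP library than in every input library, and Neat1 is at 37.3 CPM or more in all nerve libraries and at most 2.31 CPM in the retinal ones.

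Neat1 was almost absent from retina before and after IP. Input libraries held 0, 0.351 and 2.31 CPM (lowest, median and highest of 6) and IP libraries 0.0356, 1.05 and 1.88 CPM. These rest on summed counts of 52 and 131 over 6 libraries each, with 2 input libraries at 0. The log2 fold change was 0.65 (SE 1.07, edgeR adjusted p = 0.793), and at such counts a difference of this size was not detectable. Without input replicates 1 and 2 it was 1.37 (edgeR adjusted p = 0.542).

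The neuronal long noncoding RNAs gave no call between retina IP and input. Meg3 had a median of 21.54 CPM in input (16.53 to 164.4) and of 27.36 CPM in IP (8.03 to 56.26), with a log2 fold change of -0.77 (SE 0.630, edgeR adjusted p = 0.524). Snhg11 had medians of 35.66 CPM in input (22.72 to 143.4) and 34.25 CPM in IP (11.79 to 108.3), and its log2 fold change was -0.09 (SE 0.549, edgeR adjusted p = 0.954). The medians of Meg3 and Snhg11 thus lay close together in IP and input, while single libraries of each group ranged widely. Rmst had a log2 fold change of -0.75 (SE 0.515, adjusted p = 0.434), from 6.44 ± 3.90 CPM (SD, n = 6) in input to 3.52 ± 2.03 CPM (SD, n = 6) in IP, by edgeR. Miat, at -2.29 (SE 1.26, adjusted p = 0.309, edgeR), rested on input replicate 1, which held 17.44 CPM, while the other 5 inputs held 0.0605 to 3.13 CPM. Without input replicate 1 the log2 fold changes were 0.04 for Meg3, -0.36 for Miat and 0.52 for Snhg11, and without replicates 1 and 2 they were 0.59, 0.69 and 0.61, so these directions turned with those libraries. Rmst was at -0.07 without replicates 1 and 2 (edgeR adjusted p = 0.946).

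Xist, the RNA that coats the inactive X chromosome of female cells and so a nuclear RNA outside the 8, was set beside them. The labels give no sex, so its level may also follow the mix of sexes. Xist held 7.30, 12.94 and 24.35 CPM (lowest, median and highest of 6) in input and 2.59, 9.50 and 21.24 CPM in IP. The groups overlapped over most of their range, and the log2 fold change was -0.28 (SE 0.549, edgeR adjusted p = 0.831), and -0.02 without input replicates 1 and 2. Over the 8 RNAs the median log2 fold change was -1.32 with 7 of 8 below 0, and without input replicates 1 and 2 it was 0.26 with 4 of 8 below 0, beside medians over all genes of 0.02 and 0.00. These medians and counts of the 8 take Rn7s1 and Rn7s2, which have the same sequence, as 2 genes.

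**Figure D2:**
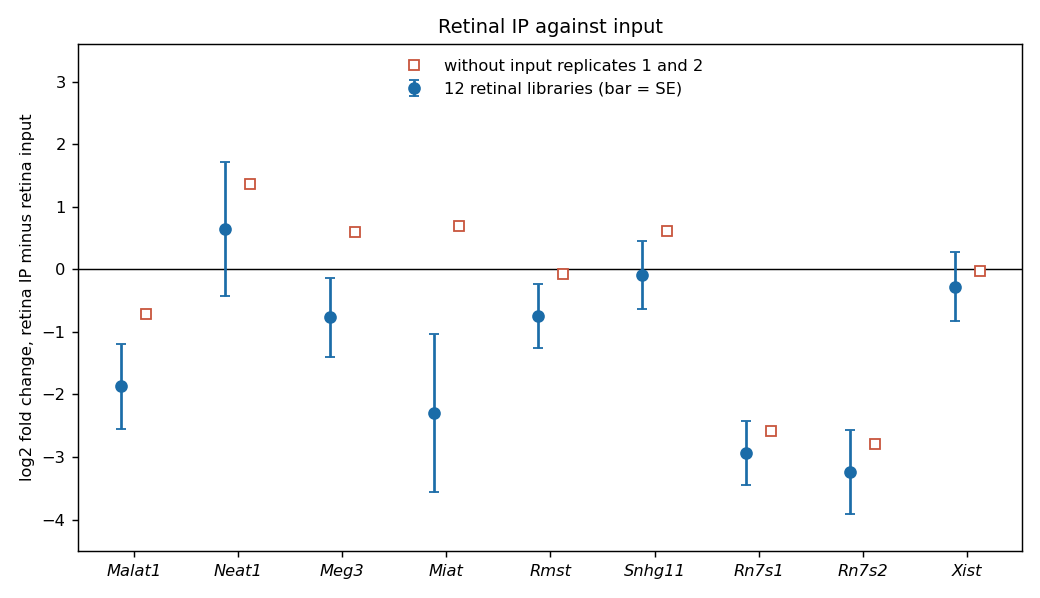
Log2 fold change of retina IP minus retina input for the 8 RNAs and Xist; circles with SE bars are the fit on 12 libraries, open squares the fit without input replicates 1 and 2. The 7SL genes move from -2.93 and -3.24 to -2.59 and -2.79, Malat1 moves from -1.87 to -0.71, and Meg3, Miat and Snhg11 cross 0.

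The IP libraries differed among themselves in ways that ran beside these levels. Mitochondrial transcripts took 2.12% and 2.23% of counts in IP replicates 3 and 4, 1.03% in replicate 2 and 0.155% to 0.384% in replicates 1, 5 and 6. Malat1 was highest in IP replicates 3 and 4 (464.2 and 275.3 CPM) and so was 7SL (20.79 and 28.44 CPM). The astrocyte gene Pax8 was at 253.1 to 376.7 CPM in IP replicates 2, 3 and 4 and at 30.19 to 42.59 CPM in replicates 1, 5 and 6, so the IP libraries with more Pax8 were those with more 7SL, Malat1 and mitochondrial RNA. The part of mitochondrial RNA or of Pax8 level in the differences was not tested.

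**Figure D3:**
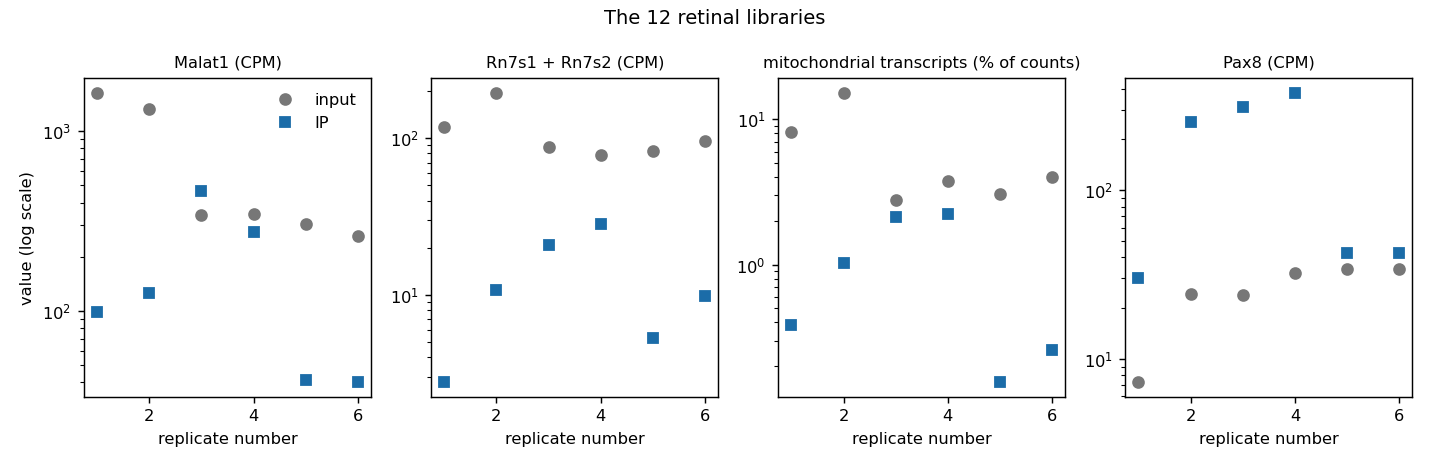
Malat1, summed 7SL, mitochondrial share of counts and Pax8 (log axes) in the 12 retinal libraries by replicate number, circles for input and squares for IP; replicate numbers have no order. 7SL in IP (2.78 to 28.44 CPM) lies below input (77.66 to 194.6 CPM) throughout, while Malat1 overlaps through IP replicates 3 and 4.

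Other noncoding RNAs were read from lists that the rule did not use. The 877 long noncoding genes tested had a median log2 fold change of -0.74 in retina IP against input, with 79.6% of them below 0, and the 13356 protein-coding genes had a median of 0.08, with 44.9% below 0. Without input replicates 1 and 2 the long noncoding median was -0.36, and the protein-coding median 0.03. Genes are not replicates, and no test was made between the classes.

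Among 20 other nuclear long noncoding RNAs, 14 were tested, with a median of -0.31 and 9 of 14 below 0 (-0.21 and 8 of 14 without input replicates 1 and 2). edgeR called 0 of them, and 3 had an unadjusted p under 0.05, all lower in IP, against 10.4% of all genes lower. These were Kcnq1ot1, the antisense RNA of an imprinted locus, at a mean of 10.4 CPM in input against 2.53 CPM in IP (a log2 fold change of -1.93, edgeR adjusted p = 0.134), Snhg14, which spans the Ube3a antisense transcript, at -1.15 (adjusted p = 0.105), and Rian, a neighbour of Meg3 in its imprinted cluster, at -1.16 (adjusted p = 0.138). Rian was named after its value was seen. Without input replicates 1 and 2, Kcnq1ot1 was at -0.44 and Snhg14 at -0.90. Peg13, a brain imprinted RNA, was at 90.42 CPM in IP and 142.5 CPM in input, a log2 fold change of -0.59 (edgeR adjusted p = 0.593). Its value without input replicates 1 and 2 was -1.11, further from 0.

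Small nucleolar RNA host genes and cytoplasmic long noncoding RNAs, which are exported and in part bound by ribosomes, had a lower median than the nuclear list, with no test between the lists. All 14 tested of 22 were below 0, with a median of -1.72. At an unadjusted p under 0.05, 8 of 14 were lower, against 10.4% of all genes. edgeR called 0 of them and DESeq2 7 lower, against 7.12% of all genes by DESeq2. Gas5, a host of box C/D snoRNAs and a known ribosome-bound transcript, was at 46.68 to 112.1 CPM in IP and 141.2 to 1424 CPM in input, without overlap (log2 fold change -2.54, SE 0.584, edgeR adjusted p = 0.0570). Snhg6 was at -2.70 and Snhg8 at -2.08 (edgeR adjusted p = 0.0673 and 0.0670). Without input replicates 1 and 2 the list's median was -0.34 with 9 of 14 below 0, and Gas5, Snhg6 and Snhg8 were at -1.11, -0.89 and -0.85.

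Few of the listed small and structural RNAs could be followed in this poly(A)-selected material. Of 26 listed, 2 were tested. Rn7s6, which shares 143 of the 270 words of 7SL, had means of 2.31 CPM in input and 0.191 CPM in IP (log2 fold change -3.42, edgeR adjusted p = 0.0581, named after its value was seen). Gm26917, which is not in the annotated small noncoding class, went the other way, at means of 6.85 CPM in input and 29.39 CPM in IP (log2 fold change 2.22, edgeR adjusted p = 0.0693). In that class 12 genes were tested, with a median of -0.45 and 7 of 12 below 0. Without input replicates 1 and 2 these were -0.28 and 8 of 13. At an unadjusted edgeR p under 0.05, 5 of the 12 were lower and 0 higher, against 10.4% of all genes lower. Rn7s1 and Rn7s2 are among the 5.

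The mRNAs of proteins that bind these RNAs had medians near 0. The 9 tested signal recognition particle genes had a median of -0.02 (-0.17 without input replicates 1 and 2), with 0 called by edgeR and 2 in each direction at an unadjusted p under 0.05. Of all 15181 genes, 1771 were higher and 1585 lower at that p. Srp19 and Srp9, which encode proteins that bind 7SL itself, were at -1.49 and -1.20 (edgeR adjusted p = 0.0897 and 0.0935), and at -0.36 and -0.37 without input replicates 1 and 2. Srpr, the receptor of the particle, was at 1.13 (edgeR adjusted p = 0.0700), and at 0.82 without those inputs. The 20 paraspeckle and speckle protein genes had a median of -0.06 (0.09 without those inputs), with 0 called by edgeR and 0 at an unadjusted p under 0.05, and Nono, a core paraspeckle protein, was at 214.7 CPM in IP and 162.8 CPM in input. The 15 mitochondrial transcripts, of which the mRNAs are translated on other ribosomes, had a median of -2.83 with 15 of 15 below 0. Without input replicates 1 and 2 that median was -1.5, where Rn7s1 and Rn7s2 were at -2.59 and -2.79.

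**Figure D4:**
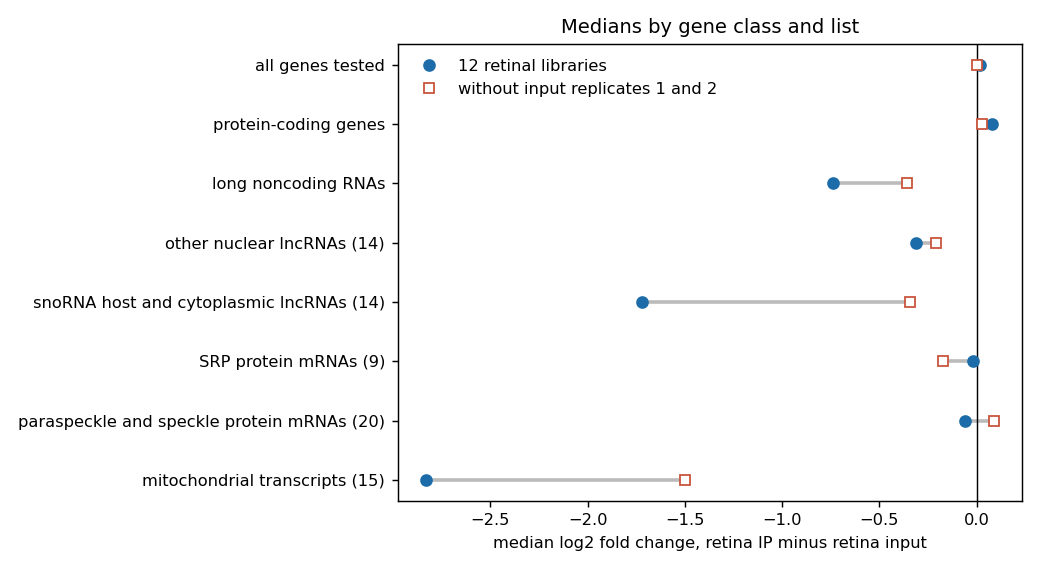
Median log2 fold change of retina IP minus retina input by gene class and list; circles are the fit on 12 libraries, open squares the fit without input replicates 1 and 2, and the number of genes tested per list in the 12-library fit is in brackets. Long noncoding RNAs lie at -0.74 and mitochondrial transcripts at -2.83, and both move toward 0 in the smaller fit, to -0.36 and -1.5.

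Between regions, Neat1 was the RNA of the 8 with the widest difference. ONH IP libraries held 37.3, 59.78 and 120.8 CPM (lowest, median and highest of 7) and ONP IP libraries 63.42, 92.65 and 425.9 CPM, against at most 1.88 CPM in retina IP. The lowest nerve library was above every retinal one. The log2 fold change of retina IP against ONH IP was -7.36 (SE 0.661, adjusted p = 9.47e-08) and against ONP IP -8.16 (SE 0.644, adjusted p = 1.27e-08), in edgeR fits on the 20 IP libraries with a batch term. Neat1 was the 1 of 7 tested RNAs called against ONH, where 21.1% of 16355 genes were called lower and 12.7% higher and 14.1% lay lower without overlap (8.77% higher). Against ONP, 3 of 7 were called, 1 lower and 2 higher, where 19.9% of genes were called lower and 12.9% higher. In the batch 2 libraries alone Neat1 was at -6.31 against ONH and -8.50 against ONP (edgeR adjusted p = 0.00968 and 0.00257). Both comparisons share the retina IP libraries.

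Markers of several other cell types were also higher in the nerve libraries than in retina IP. The summed CPM of 10 oligodendrocyte markers was 28220 to 74090 in ONH, 36850 to 126200 in ONP and 49.7 to 158 in retina IP. All 10 were called lower in retina in both comparisons, as were 21.1% (ONH) and 19.9% (ONP) of all genes. Microglial markers summed to 279.4 to 2286 CPM in ONH, 358 to 3423 CPM in ONP and 116.7 to 199.5 CPM in retina IP. Fibroblast markers summed to 425 to 1033, 141.9 to 974.8 and 1.64 to 18.97 CPM. Within ONH, replicate 3 was lowest and replicate 4 highest in both Neat1 and the oligodendrocyte sum. Within ONP, replicate 5, with the lowest oligodendrocyte sum, held 92.65 CPM of Neat1, and replicate 2, with the highest, held 78.33 CPM. Over the 26 libraries, log2 CPM of Neat1 was most like that of Mobp (Pearson r = 0.972), a myelin protein gene of oligodendrocytes, and then of the antisense RNA 2810468N07Rik (0.970) and Zcchc24 (0.970), out of 9787 genes with a mean of at least 10 CPM. These points share library and region. The part of oligodendrocyte or microglial RNA in the Neat1 difference was not tested, and in bulk RNA, fewer cells of a type and less RNA per cell cannot be told apart.

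Malat1 did not pass the edgeR test between regions, and its values depended on how batch was treated. Over both batches it was at 174.2 ± 166.1 CPM (SD, n = 6) in retina, 201.2 ± 95.6 CPM (SD, n = 7) in ONH and 200.4 ± 95.3 CPM (SD, n = 7) in ONP, and the ranges overlapped. Within batch 2, ONH and ONP replicate 7, at 409.8 and 387.8 CPM, were above 5 of the 6 retina IP libraries. With the batch term, the log2 fold change of retina was -1.17 against ONH (SE 0.615, edgeR adjusted p = 0.148) and -1.18 against ONP (SE 0.620, adjusted p = 0.153), while without the term both were near 0 (-0.19 and -0.18). Leaving out retina IP replicate 3, the highest of its group, gave -1.74 and -1.75 with edgeR adjusted p of 0.0118 and 0.0130, and limma-voom on all 20 libraries called Malat1 lower in retina in both comparisons (-1.74, adjusted p = 0.0461, and -1.71, 0.0498). Per kilobase of exon, Neat1 stood at 0.0471 CPM in retina IP, where Malat1 was at 24.95. In ONP, Neat1 reached 6.66 CPM per kilobase against 28.7 for Malat1. The Neat1 values divide by the 20771 bases of its long form. Over the length of the short polyadenylated form they would be higher, so the order of the 2 RNAs in nerve depends on this choice.

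Snhg11 and Meg3 were higher in retina IP than in most nerve libraries. Snhg11 had a median of 34.25 CPM in retina IP, 1.31 CPM in ONH (0.329 to 15.72) and 0.512 CPM in ONP (0 to 5.62). It was called higher in retina than in ONP without overlap, at a log2 fold change of 3.11 (SE 1.04, edgeR adjusted p = 0.0262), where 11.8% of genes lay higher without overlap (16.5% lower). The call was lost without ONH replicate 7 (3.06, edgeR adjusted p = 0.114) or ONP replicate 7 (3.19, 0.189). Against ONH it was at 1.5 (SE 0.955, edgeR adjusted p = 0.235).

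Meg3 had a median of 27.36 CPM in retina IP, 0.798 CPM in ONH and 0.450 CPM in ONP. Its log2 fold change was 1.56 against ONH (edgeR adjusted p = 0.208) and 1.83 against ONP (edgeR adjusted p = 0.175), and these became 3.63 and 4.52 when the batch term was left out (adjusted p = 0.00547 and 0.00138). The batch term rests on ONH and ONP replicate 7 alone, whose deposited column names end in Adaptor where all others end in a number. In those libraries Meg3 was at 12.4 and 5.62 CPM, 17.5 and 12.6 times the median of the 6 batch 1 libraries of the same region, and Snhg11 was at 13.25 and 12.47 times. Both RNAs were thus higher in the batch 2 nerve libraries than in each batch 1 library of their region. The 10 pan-neuronal markers summed to 1744 CPM in ONH replicate 7, to 171 to 330 CPM in the other 6 ONH libraries and to 231.7 to 487.6 CPM in ONP, against 2321 to 14170 CPM in retina IP. The part of neuronal RNA in these differences was not tested. Over the 26 libraries Meg3 was most like Tmsb10, Cxxc4 and Shank1 (Pearson r = 0.945, 0.935 and 0.933) and Snhg11 most like Syndig1l, Pcp4 and Fam241b (0.932, 0.924 and 0.917).

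Rmst and Miat were scarce. Rmst was called higher in retina IP than in ONP IP (log2 fold change 2.44, SE 0.864, edgeR adjusted p = 0.0357), although the libraries overlapped, at 1.17 to 7.01 CPM in retina and 0.596 to 5.01 CPM in ONP. Without the batch term it was at 0.85 (adjusted p = 0.189), and the call was also lost without ONH replicate 7 (1.94, 0.207), ONP replicate 7 (3.23, 0.111) or retina IP replicate 2 (2.11, 0.0574), by edgeR. Miat did not pass the low-count filter of the nerve fits, with 6 counts over the ONH libraries (5 of 7 at 0) and 14 over the ONP libraries (4 of 7 at 0).

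7SL was also low in nerve IP. The summed genes held 1.595, 4.12 and 10.36 CPM (lowest, median and highest of 7) in ONH and 0.748, 2.39 and 24.79 CPM in ONP, beside the median of 10.34 CPM in retina IP. The highest nerve library, ONP replicate 7, was still below the lowest retina input library. For the sum, the log2 fold change of retina IP was -0.81 against ONH (SE 0.821, edgeR adjusted p = 0.471) and -0.27 against ONP (SE 0.746, edgeR adjusted p = 0.820). Rn7s1 alone was at -0.85 against ONH, but at 1.67 without the batch term, so its direction was not settled. Over the 26 libraries Rn7s1 was most like the pseudogene Gm28661, mt-Rnr2 and mt-Nd1 (Pearson r = 0.944, 0.943 and 0.942), of which mt-Rnr2 and mt-Nd1 are encoded in mitochondria.

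The batch 2 nerve libraries were higher in most of these RNAs. ONH replicate 7 also stood apart in markers of retinal cells. Its 10 rod markers summed to 45040 CPM, against 43.23 to 735.7 CPM in the other 6 ONH libraries, its 7 bipolar markers to 355.4 CPM (others 32.7 to 50.21) and its 10 ganglion cell markers to 284.8 CPM (others 35.28 to 105.4). Its astrocyte sum, 6141 CPM, was the lowest of the 7. In ONP replicate 7 the rod sum was 607.7 CPM (others 4.51 to 68.89). The part of retinal RNA in the batch term and in the values that rest on it was not tested. Malat1 was 2.62 times the batch 1 median in ONH and 2.48 times in ONP, and Rn7s1 4.09 and 15.6 times. Neat1 in ONP replicate 7 was 4.98 times that median, while in ONH it lay within the batch 1 range. Rmst in ONH replicate 7, at 0.636 CPM, was below all 6. Xist was at 17.08 and 13.19 CPM in these 2 libraries and at 0 to 4.45 CPM in the 12 of batch 1. The part of sex in these Xist levels was not tested. Region is balanced over batch within the nerve, but retina lies wholly in batch 2.

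**Figure D5:**
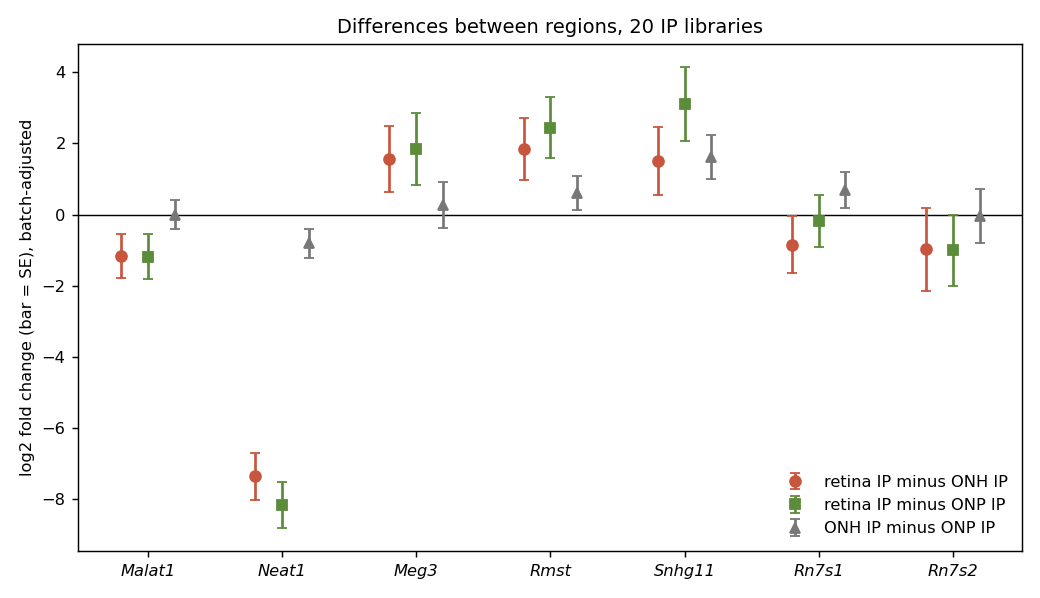
Batch-adjusted log2 fold changes with SE bars for the 7 RNAs tested in the 20 IP libraries; circles are retina minus ONH, squares retina minus ONP and triangles ONH minus ONP. Neat1 lies at -7.36 and -8.16 in the retinal comparisons, and the ONH minus ONP values lie between -0.81 and 1.62.

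Within the optic nerve, edgeR called 0 of the 7 RNAs tested between ONH and ONP IP, where 4.43% of genes were called higher and 3.04% lower in ONH. Snhg11 had an unadjusted p under 0.05, as did 12.6% of all genes in the same direction, and DESeq2 called it, as it did 7.04% of genes. A count of 1 of 7 is near these shares. Snhg11 was at 1.62 (SE 0.613, edgeR adjusted p = 0.113, DESeq2 adjusted p = 0.0444) and Neat1 at -0.81 (SE 0.409, edgeR adjusted p = 0.245), with overlapping libraries in both. Neat1 was lower in each ONH library than in the ONP library of the same number. With a block for replicate number, edgeR called Neat1 lower in ONH (-0.87, adjusted p = 0.0191). The labels do not state that these numbers pair libraries. Malat1 was at -0.01 (SE 0.405, edgeR adjusted p = 0.991), from means of 201.2 and 200.4 CPM.

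Other noncoding RNAs were read in the same regional fits. Of 15 tested nuclear long noncoding RNAs, edgeR called 2 up and 3 down in retina IP relative to ONH, or 13.3% and 20% of them, near the shares over all genes of 12.7% and 21.1%. The higher pair was Peg13 (90.42 against 25.29 CPM, log2 fold change 1.99, edgeR adjusted p = 0.00832) and Six3os1, the antisense neighbour of an eye-field gene (60.94 against 33.83 CPM, 1.11, 0.0418). The lower genes, chosen after their values were seen, were Dleu2, Pantr1 and Pvt1 (-2.93, -4.67 and -1.73). Against ONP, Six3os1 and Peg13 were again called higher (1.97 and 1.61), and 5 of 15 were called lower, among them Pvt1 at -2.16 (edgeR adjusted p = 0.000146). These were 13.3% and 33.3% of the list, beside 12.9% and 19.9% of all genes. Of 14 host and cytoplasmic RNAs, edgeR called 1 up and 5 down in retina relative to ONH, or 7.1% and 35.7%. The shares over all genes were 12.7% and 21.1%. The median of the list, -1.6, became 0.32 without the batch term. The higher one, 2900097C17Rik, was at 598.6 CPM in retina IP and 316.8 CPM in ONH IP (log2 fold change 1.97, edgeR adjusted p = 2.54e-05), and Gas5 was among the lower ones by the fit (-1.09, edgeR adjusted p = 0.0272) although its mean was higher in retina IP (71.5 against 43.11 CPM), since the fit compares within batch.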

How the data were processed

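RNA was measured in 26 libraries of poly(A) RNA amplified with a Smart-Seq ultra-low input kit, per the labels' protocols. Reads were quantified with Salmon 1.6.0 on mm10, per the submitters' processing notes; the annotation release is not given in the sources used here. The authors deposited 1 table of estimated counts per gene, held as whole numbers, for 54532 genes, of which 22279 were 0 in every library. GENCODE M21 gave symbols for 54495.

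The 8 RNAs and the gene lists were chosen with earlier results of these data known. Samples were grouped by their labels. In R 4.3.3, edgeR 4.0.16 with TMM factors, filterByExpr (minimum count 10, minimum total 15) and the quasi-likelihood test was run over all genes, with p adjusted over all genes tested (Benjamini-Hochberg, called under 0.05). The retinal pair of IP and input used its 12 libraries and no covariates. Regions were compared on 20 IP libraries with batch. The fit was also run on simulated data in which the scatter between libraries was capped and no batch effect was added. That run therefore does not show what the fit can detect in these libraries. Log2 fold changes were named the IP group minus input, and retina minus nerve. CPM used TMM factors over 26 libraries, and no 2 libraries were identical (0 pairs). Named list genes were up to 3 per list and comparison with the largest absolute log2 fold change among those called, or among all tested where none was, where the higher group averaged 10 CPM or more. Likeness was Pearson's r of log2 CPM. Alternatives were DESeq2 1.42.0, limma-voom (limma 3.58.1), other size factors, filters, batches and sample sets, a replicate block, all 26 libraries in one fit and each library left out. A fit on Rn7s1 and Rn7s2 summed was added after seeing that their sequences are identical.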

Additional observations from a re-analysis of the deposited data

Results flagged for a closer look

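Single libraries lay far from the other replicates of their group in 14 of the 32 group levels examined, by Dixon's gap rule. The rule flags about 1 in 20 where values are normally spread. CPM near 0 need not be, and the levels share libraries, so that rate is no measure of chance here. Of the 14, 8 were in the batch 2 nerve libraries. ONH replicate 7 held 409.8 CPM of Malat1 (others 134.8 to 202.4), 12.4 CPM of Meg3 (others 0.0479 to 0.931) and 15.72 CPM of Snhg11 (others 0.329 to 5.12). ONP replicate 7 held 425.9 CPM of Neat1 (others 63.42 to 136.2), 5.62 CPM of Meg3 (others 0.0556 to 1.24), 5.62 CPM of Snhg11 (others 0 to 1.25), 21.62 CPM of Rn7s1 (others 0.674 to 2.41) and 3.17 CPM of Rn7s2 (others 0.0748 to 1.34).

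Retina input replicate 1 held 164.4 CPM of Meg3 (others 16.53 to 67.74), 17.44 CPM of Miat (others 0.0605 to 3.13) and 143.4 CPM of Snhg11 (others 22.72 to 44.75). Retina input replicate 2 held 178.6 CPM of Rn7s1 (others 70.28 to 105.7). ONH replicate 1 held 0.219 CPM of Miat (others 0 to 0.0908) and ONP replicate 5 held 5.01 CPM of Rmst (others 0.596 to 2.23).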

How the results depend on the processing

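Of 303 comparisons of a log2 fold change with its value under another setting, 262 kept direction and side of the threshold, and of 528 fits with 1 library left out, 494 did. The Neat1 calls against ONH and ONP held in each fit that left out 1 library. Depth limits Miat and Neat1 in retina most.

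The number of the RNAs called in retina IP against input (0) was 2 with no low-count filter, 3 with DESeq2, 3 in a fit of all 26 libraries and 0 to 2 with 1 library left out (2 without retina IP replicate 1 or 5). Against ONH (1) it was 2 with DESeq2, 2 with limma-voom, 3 without batch and 1 to 2 with 1 library left out (2 without retina IP replicate 3). Against ONP (3) it was 1 in batch 2 alone, 1 with only the groups compared and 1 to 4 with 1 library left out (1 without ONH or ONP replicate 7, 4 without retina IP replicate 3). In ONH against ONP (0) it was 1 with DESeq2 and 1 with the replicate block. Rn7s1 and Rn7s2 count as 2 RNAs in these numbers. Shares of all genes called are not given beside them, so they do not show whether more genes in general were called. The cause was not tested.

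Directions turned as follows. In retina IP against input without input replicates 1 and 2, Meg3 was 0.59, Miat 0.69 and Snhg11 0.61, and Snhg11 was 0.03 on library totals; with 1 library left out, Meg3 ran from -1.07 to 0.04 and Snhg11 from -0.52 to 0.52. Against ONH, Rn7s1 was 1.67 without batch, 0.49 in batch 2 alone and 0.35 with only the groups compared, and Rn7s2 0.45, 1.02 and 0.87; left-out fits ran from -1.78 to 0.30 and from -2.15 to 0.82. Against ONP, Rn7s1 was 1.52 without batch, and left-out fits ran from -0.80 to 1.28 for Rn7s1 and from -1.80 to 1.17 for Rn7s2. In ONH against ONP, Malat1 was 0.05 on library totals, 0.02 with limma-voom, 0.03 with the replicate block and 0.01 without batch (left-out fits -0.11 to 0.10), Rn7s1 was -0.15 without batch, and Rn7s2 was 0.02 on library totals and 0.34 in batch 1 alone (left-out fits -0.29 to 0.35). The Snhg11 call against ONP was lost with limma-voom (2.83, adjusted p = 0.0717) and in batch 2 alone (3.25, 0.164), and the Rmst call with no low-count filter (2.51, 0.0518).

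Replicate numbers are not stated to pair libraries. Deviations of same-numbered libraries from their group means correlated at -0.098 to 0.231 for retina IP and input (5 of 6 best with their own number). For ONH and ONP they correlated at 0.073 to 0.46 (7 of 7), so these numbers may mark pairs. The fits without a block do not use such pairs. With the replicate block, 0 of the 8 were called in retina IP against input (Rn7s1 at -3.27, adjusted p = 0.172) and 1 of 7 in ONH against ONP, Neat1 at -0.87 (adjusted p = 0.0191), by edgeR. A block together with batch could not be fitted for the retinal regions, and unrounded counts were not run because the table holds whole numbers.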
